A study of Mus musculus and Homo sapiens with 20 samples.

Results

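The regions described here are 1108 stretches of the mouse autosomes that carried H3K27me3, the trimethylated form of a lysine in the tail of histone H3, in haematopoietic stem and progenitor cells (HSPCs) and not in mouse embryonic stem (mES) cells. They were selected on the data themselves. A base had to lie under a peak in both wild-type (WT) HSPC H3K27me3 libraries, gaps of up to 1 kb were joined, the joined domain had to be 3 kb or wider, and no peak of either WT mES H3K27me3 library could touch it. Of 9804 autosomal H3K27me3 domains in WT HSPCs, these 1108 are called HSPC-only domains and the other 8696, which met a mES peak, are called shared domains. The same rule with the cell types exchanged gave 2969 mES-only domains. H3K27me3 in the 4 WT libraries therefore describes how the domains were chosen, and only H2AK119ub and the Tet2-knockout (KO) libraries are readouts that the choice did not use.

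The peak lists came from CUT&Tag, in which an antibody guides a transposase to cut DNA next to a chromatin mark. Both H3K27me3 and H2AK119ub, ubiquitin on a lysine of histone H2A, were profiled in HSPCs and mES cells, each WT or Tet2 KO, with 2 libraries in each group and 16 in all. HSPCs were Lin- c-Kit+ cells, enriched with magnetic beads from the marrow of WT C57BL/6 mice or from Tet2-/- mice backcrossed to C57BL/6, aged 6 to 8 weeks, with both sexes used in the study. Such cells are a mixture of stem cells and committed progenitors. Whether animals were pooled, and whether these cells were cultured before the assay, is not given in the sources used here. The mES cells were a WT and a Tet2-/- line kept with LIF, CHIR99021 and PD0325901, which hold cells in a naive pluripotent state. The methods call CUT&Tag replicates biological, but neither they nor the labels say which animals or cultures stand behind the 2 libraries of a group. The p-values measure the spread between these libraries, part of which may be technical.

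H3K27me3 is laid down by Polycomb repressive complex 2 (PRC2), and H2AK119ub by Polycomb repressive complex 1 (PRC1). Both marks are often found over silent genes, and each complex can be recruited by the mark of the other. A peak alone does not show that a gene is silent, and these libraries do not measure expression. Polycomb complexes tend to gather at unmethylated, CG-rich DNA. In embryonic stem cells H3K27me3 is known for covering the promoters of developmental regulators, whereas genes that an embryonic stem cell uses are free of it. TET2 is a dioxygenase that oxidises 5-methylcytosine, and its gene is often mutated in myeloid malignancies.

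The lists held 85121 to 167378 peaks per mouse library and covered 5.62% to 10.5% of the autosomes. The commonest peak width was 501 bp in every library and held 33.2% to 41.4% of the autosomal peaks, so that coverage is in part set by a fixed width. Peaks of that width made up 10.2% to 14.2% of the HSPC-only bases under H2AK119ub, 1.13% and 1.39% of those under H3K27me3 in KO HSPCs, and 37.0% and 47.1% of those under H3K27me3 in KO mES cells. The lists give positions only, so the read depth is unknown, a longer list can reflect more reads, and a mark in some of the cells cannot be told apart from a weaker mark in all of them. WT HSPC H2AK119ub replicate 2 had the shortest H2AK119ub list, with 112281 autosomal peaks against 127019 to 133629 in the other HSPC libraries. KO HSPC H3K27me3 lists held 17883 and 17445 peaks on the X chromosome against 622 and 646 in WT, and the sex of the animals behind each library is not given in the sources used here. Genotype and whatever sets the X chromosome apart cannot be told apart in HSPCs, and all values below are autosomal. The labels were checked on promoters, taken as 1 kb on each side of the gene start. An H3K27me3 peak met 22 of 28 pluripotency promoters in each of the 4 HSPC libraries, 12 and 13 in the WT mES libraries, and 6 and 4 in the KO mES libraries. Of 20 HSPC identity genes, 15 or 16 promoters met H3K27me3 in the HSPC libraries and 17 to 20 in the mES libraries. Of 12 widely expressed genes, which most cells use, 8 or 9 promoters met an H3K27me3 peak in each HSPC library and 0 or 1 in each mES library. H2AK119ub peaks met all 12 of them in each HSPC library and 6 or 7 in each mES library. What sets these peaks was not tested. None of the 12 promoters lay in an HSPC-only or shared domain. Outside this list, HSPC-only domains did meet the promoters of Rpl3 and Rpl36, ribosomal protein genes, and of Psmb3, a proteasome gene.

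To show the kind of DNA these domains hold, the 300-bp window with the most CG dinucleotides is printed for 6 of them, as the mm10 forward strand, with every CG in capitals. Yap1, Pou5f1, Sall4 and Epop represent domains over a promoter, Tead1 a wide domain inside a gene, and Tln2 a domain without H2AK119ub in any HSPC library. The Yap1 window (chr9:8004579-8004878) held 50 CGs and contained the annotated gene start, with 67 exonic bases. The Pou5f1 window (chr17:35505783-35506082) held 12 CGs and also contained the gene start, with 65 exonic bases. The Sall4 window (chr2:168766751-168767050) held 36 CGs, began 893 bp downstream of the gene start and had 269 exonic bases. The Epop window (chr11:97629369-97629668) held 51 CGs, was 34 bp downstream of the start and was exonic over all 300 bp. The Tead1 window (chr7:112875855-112876154) held 12 CGs and the Tln2 window (chr9:67509787-67510086) 10, and these had 80 and 0 exonic bases, with the rest intronic.
Yap1: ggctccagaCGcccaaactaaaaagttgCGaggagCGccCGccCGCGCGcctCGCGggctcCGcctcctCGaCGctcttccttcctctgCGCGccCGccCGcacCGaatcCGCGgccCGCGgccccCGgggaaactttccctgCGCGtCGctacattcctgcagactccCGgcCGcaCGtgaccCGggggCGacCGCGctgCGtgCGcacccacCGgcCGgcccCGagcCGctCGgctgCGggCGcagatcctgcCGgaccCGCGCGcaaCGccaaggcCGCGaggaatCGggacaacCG
Pou5f1: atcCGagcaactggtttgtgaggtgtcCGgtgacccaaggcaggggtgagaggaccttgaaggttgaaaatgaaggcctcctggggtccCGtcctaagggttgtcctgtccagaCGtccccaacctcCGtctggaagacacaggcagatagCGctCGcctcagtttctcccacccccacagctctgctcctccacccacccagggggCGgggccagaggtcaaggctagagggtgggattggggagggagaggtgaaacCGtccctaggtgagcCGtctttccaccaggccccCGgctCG
Sall4: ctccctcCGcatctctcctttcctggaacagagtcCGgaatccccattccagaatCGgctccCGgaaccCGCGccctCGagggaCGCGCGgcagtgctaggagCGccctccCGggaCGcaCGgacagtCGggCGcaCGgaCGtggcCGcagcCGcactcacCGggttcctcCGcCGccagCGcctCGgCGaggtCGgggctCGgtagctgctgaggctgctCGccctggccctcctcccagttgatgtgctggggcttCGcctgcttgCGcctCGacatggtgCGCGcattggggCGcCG
Epop: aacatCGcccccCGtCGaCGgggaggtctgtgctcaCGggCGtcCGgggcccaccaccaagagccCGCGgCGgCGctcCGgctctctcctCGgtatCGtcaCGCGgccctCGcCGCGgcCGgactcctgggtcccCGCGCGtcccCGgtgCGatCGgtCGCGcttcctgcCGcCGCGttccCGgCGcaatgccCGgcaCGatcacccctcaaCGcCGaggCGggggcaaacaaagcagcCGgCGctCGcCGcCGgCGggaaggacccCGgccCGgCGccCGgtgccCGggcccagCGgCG
Tead1: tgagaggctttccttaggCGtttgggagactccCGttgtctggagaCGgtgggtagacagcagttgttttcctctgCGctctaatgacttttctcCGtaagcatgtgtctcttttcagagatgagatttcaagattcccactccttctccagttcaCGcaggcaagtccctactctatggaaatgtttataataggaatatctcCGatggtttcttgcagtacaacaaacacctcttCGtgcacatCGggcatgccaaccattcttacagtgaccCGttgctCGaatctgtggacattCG
Tln2: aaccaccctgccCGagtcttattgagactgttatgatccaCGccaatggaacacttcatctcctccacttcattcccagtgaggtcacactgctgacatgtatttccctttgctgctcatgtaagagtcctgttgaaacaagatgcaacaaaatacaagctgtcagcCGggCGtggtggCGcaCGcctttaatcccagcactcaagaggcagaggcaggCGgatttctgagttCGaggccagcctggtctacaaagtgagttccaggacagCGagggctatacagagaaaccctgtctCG

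The windows differed in H2AK119ub. The Yap1 window lay outside H2AK119ub peaks in all 4 mES libraries, outside them in WT HSPC replicate 1, and wholly under them in WT replicate 2 and in both KO HSPC libraries. The Pou5f1 window lay wholly under H2AK119ub in all 8 H2AK119ub libraries of both cell types, although its domain was chosen for having no mES H3K27me3. The Epop window lay wholly under H2AK119ub in all 4 HSPC libraries and in both KO mES libraries, with 1 and 196 bp of it covered in WT mES cells. The Tln2 window met no H2AK119ub peak in any of the 8. H3K27me3 in KO HSPCs covered the Yap1, Pou5f1, Sall4, Epop and Tead1 windows in full in both libraries, and the Tln2 window in KO replicate 1 alone.

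HSPC-only domains were narrower and less often at promoters than shared ones. A wider domain has more bases on which a mES peak can fall, and any such peak made it a shared domain. The part of this choice in the widths and promoter counts was not tested. They added up to 7.55 Mb, with a median width of 4683 bp (quartiles 3690 and 7213 bp) and a maximum of 102755 bp. Shared domains had a median of 6772 bp, and mES-only domains 4305 bp. Of the HSPC-only domains, 156 (14.1%) were 10 kb or wider and 39 were 20 kb or wider, against 32.3% of shared domains at 10 kb or wider. A protein-coding promoter was touched by 228 of 1108 HSPC-only domains (20.6%), by 40.9% of shared and by 6.06% of mES-only domains. A further view by bases gave 7.23% exonic, 54.9% intronic and 37.8% intergenic sequence in HSPC-only domains, where the autosomes have 4.96%, 42.2% and 52.8%. No annotated gene of any kind was met by 317 HSPC-only domains (28.6%). They were spread over all 19 autosomes, from 22 on chromosome 16 to 100 on chromosome 2.

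Base composition placed them between shared domains and the rest of the genome. GC content was 46.9% in HSPC-only, 49.3% in shared and 47.9% in mES-only domains, and 41.9% over the autosomes. The ratio of observed to expected CG was 0.260 in HSPC-only, 0.276 in shared and 0.223 in mES-only domains, and 0.194 over the autosomes. The densest 300-bp window of an HSPC-only domain held a median of 11 CGs (quartiles 8 and 16), that of a shared domain 17 (10 and 36). Soft-masked repeats made up 23.1% of HSPC-only bases, 19.3% of shared bases and 33.5% of the autosomes.

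Values on either side of the limits of the rule were as follows. The 102 domains that fell short of 3 kb by up to 200 bp had 74.4% and 71.5% of their length under H3K27me3 in the KO HSPC libraries, and the 100 members less than 200 bp above the limit had 75.2% and 71.8%. Another 275 domains met mES peaks over at most 10% of their length and so counted as shared. H2AK119ub covered 32.5% and 24.3% of those in WT HSPCs and 28.0% and 26.0% in WT mES cells.

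The domains often lay in neighbourhoods rich in H3K27me3. At 20 kb to either side of the domain centre, a WT HSPC H3K27me3 peak was present at 35.2% to 37.7% of domains, whereas 6.64% and 6.75% of the autosomes were covered in the same libraries. mES H3K27me3 at these distances was present at 7.13% to 9.21% of domains in WT. The median distance to the nearest WT mES H3K27me3 peak was 12512 bp, 308 domains (27.8%) had one within 5 kb and 402 (36.3%) had none within 20 kb. When domains at most 100 kb apart were grouped, 473 stood alone and 399 belonged to groups of 3 or more. The group with the most summed length was at Magi1 on chromosome 6, with 11 domains and 193233 bp. A group of 15 domains on chromosome 15 spanned Osmr, Lifr and Egflam, and a group of 12 on chromosome 5 spanned Gbp genes, which encode interferon-induced GTPases.

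**Figure D1:**
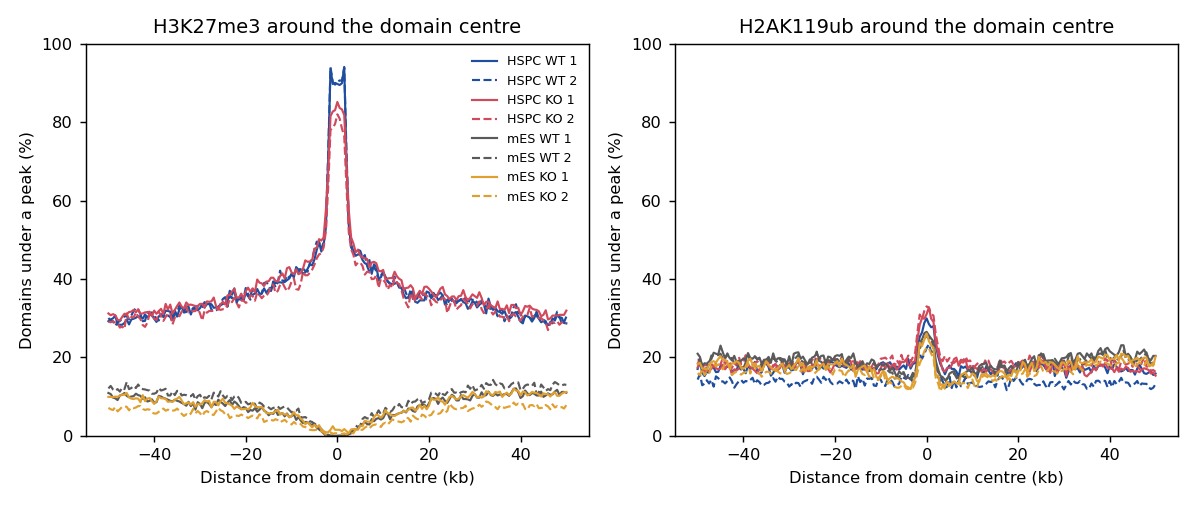
Share of the 1108 HSPC-only domains under a peak (y axis, %) against distance from the domain centre (x axis, kb), one line per library, solid for replicate 1 and dashed for replicate 2. HSPC H3K27me3 lies between 33.9% and 37.7% at 20 kb, mES H3K27me3 falls to 0% in WT at the centre by the choice of domains, and H2AK119ub has a low peak at the centre in all 8 libraries, from 22.4% to 33.0%.

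H2AK119ub peaks lay in the HSPC-only domains in both cell types, although WT H3K27me3 was called there in HSPCs alone. In WT HSPCs H2AK119ub peaks covered 27.9% and 21.1% of the summed length (24.5% ± 4.87, SD, n = 2). In WT mES cells they covered 22.5% and 22.0% (22.2% ± 0.351, SD, n = 2). The WT groups overlapped, since one HSPC library lay above and the other below both mES libraries. The difference was 2.26 percentage points (two-sided exact permutation test over libraries, p = 1), and it turned to -1.18 without WT HSPC replicate 1. KO HSPCs had 30.2% and 31.9% (31.1% ± 1.22, SD, n = 2), and KO mES cells 20.6% and 18.4% (19.5% ± 1.56, SD, n = 2). Over both genotypes HSPCs exceeded mES cells by 6.91 points (27.8% against 20.9%, exact permutation within genotype, p = 0.167, adjusted p = 0.333), with 3.11 to 9.66 points under the alternatives. Among these 8 libraries only WT HSPC replicate 2 fell within the mES range.

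Shared domains showed a different order. There H2AK119ub covered 40.1% and 31.3% in WT HSPCs and 43.8% and 45.4% in KO HSPCs, against 59.9% to 63.0% in the 4 mES libraries, with no overlap between cell types. The shortfall of HSPC-only relative to shared domains was 40.6 points in mES cells and 12.4 points in HSPCs on average. The difference between these shortfalls was 28.3 points, with p = 0.0556 in the exact permutation within genotype and an adjusted p of 0.167. That p is the smallest that 36 arrangements can give, so this design cannot reach 0.05. Whether a domain met mES H3K27me3 also separated the HSPC-only from the shared set. Where H2AK119ub lies with H3K27me3, this difference cannot be told apart from that choice. Divided by the autosomal share covered in the same library, H2AK119ub in shared domains was 5.57 to 6.49 times the autosomal level in HSPCs and 5.99 to 6.30 times in mES cells. In HSPC-only domains the ratio was 3.74 to 4.51 in HSPCs and 1.94 to 2.19 in mES cells. The HSPC-only domains were thus above the autosomal level of H2AK119ub in each of the 8 libraries of both cell types. Their surroundings were above it too. At 20 kb from the centre a peak was present at 13.4% to 19.8% of domains in HSPCs and 16.3% to 20.3% in mES cells. At the centre these shares were 22.4% to 33.0% and 22.5% to 26.5%. The excess is therefore in part regional, most of all in mES cells. In mES-only domains, the mirror set, the 4 mES libraries had 52.5% to 57.3% and the 4 HSPC libraries 11.3% to 17.1%.

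**Figure D2:**
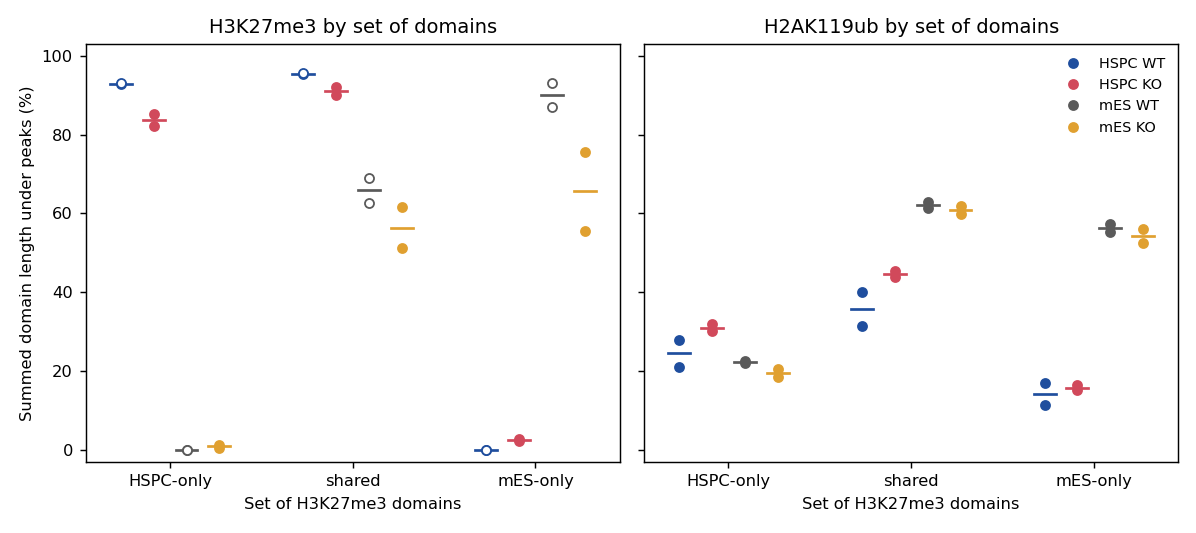
Summed length under peaks (y axis, %) for the 3 sets of H3K27me3 domains (x axis), one point per library, 2 per group, with a bar at the group mean. Open points are the WT H3K27me3 libraries that chose the sets. In HSPC-only domains H2AK119ub lies between 18.4% and 31.9% in all 8 libraries, while in shared domains the mES libraries lie above every HSPC library.

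Single HSPC-only domains ranged from 0% to 100% H2AK119ub coverage in each of the 8 libraries. The median domain had 15.6% and 8.84% in WT HSPCs, 16.9% and 20.7% in KO HSPCs, and 10.3% to 14.4% in the mES libraries. An H2AK119ub peak touched 545 domains (49.2%) in all 4 HSPC libraries and 543 (49.0%) in all 4 mES libraries. Among shared domains these shares were 67.3% and 92.8%, and among all 9804 WT HSPC domains 65.2% and 87.9%. Exclusive patterns were few, with 40 domains touched in all 4 HSPC and no mES library (3.61%, against 0.561% of all) and 18 in the opposite state (1.62%, against 3.64% of all). H2AK119ub was absent from 167 domains (15.1%) in all HSPC libraries, where this held for 6.98% of all domains. A further count gave 89 of the 1108 (8.03%, against 1.34% of all) without an H2AK119ub peak in any of the 8 libraries. At least 50% of the length was covered in both WT HSPC libraries in 155 domains (14.0%) and in both WT mES libraries in 162 (14.6%), against 21.5% and 53.9% of all domains.

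H2AK119ub coverage ran with promoters and CG-dense DNA. In the 228 HSPC-only domains with a coding promoter it covered 44.0% and 36.2% in WT HSPCs, 48.9% and 50.1% in KO HSPCs, and 27.4% to 30.5% in mES cells. In those without one it covered 22.5% and 16.0%, 23.9% and 25.8%, and 15.4% to 19.8%. In every library the first class had the higher value. When members were ranked by the CG count of their densest window and cut into classes of 370, 369 and 369, WT HSPC H2AK119ub covered 12.8% and 7.64% in the lowest class, 20.6% and 14.4% in the middle one and 43.1% and 34.6% in the highest. WT mES cells had 12.2% and 12.6%, 17.8% and 16.6%, and 32.5% and 32.1% in the same order. Promoters hold CG-dense DNA, so these descriptions overlap. HSPC H2AK119ub peaks also met all 12 widely expressed promoters, and the part of this in the promoter values was not tested. The centre of the densest window was under H2AK119ub in 33.8% and 28.0% of domains in WT HSPCs, against 27.9% and 21.1% of the whole length.

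H3K27me3 was also present over most of these domains in Tet2-KO HSPCs. H3K27me3 peaks covered 85.2% and 82.2% of the summed HSPC-only length in KO HSPCs, against 1.24% and 0.547% in KO mES cells. The difference of 82.8 points had p = 0.333 (exact permutation, the smallest that 6 arrangements can give). The same mark in WT libraries of both cell types chose the domains. This test therefore cannot show a difference between cell types apart from that choice. At least 1 H3K27me3 peak touched 99.4% and 99.0% of the domains in the KO HSPC libraries, and in 935 of 1108 at least 50% of the length was covered in both. WT libraries covered 92.7% and 93.1%, but WT values were fixed by the choice of domains and no loss can be read from the gap. In KO mES cells a peak touched 114 domains in either library and 40 in both. Most of the domains thus had no H3K27me3 peak in mES cells of either genotype.

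Of the bases shared by both WT libraries, 89.4% and 86.6% lay under H3K27me3 in KO HSPCs in HSPC-only domains and 94.7% and 92.8% in shared domains. The mean difference was -5.73 points and had the same sign in both KO libraries. It ranged from -3.41 points with domains of 5 kb or wider to -12.1 and -12.2 points where only WT replicate 2 or only WT replicate 1 defined the domains. Width moved with it. In domains of 3 to 5 kb the KO libraries kept 82.8% and 77.7% in the HSPC-only set (610 domains) and 88.5% and 84.5% in the shared set. In domains of 20 kb or wider they kept 95.3% and 94.8% (39 domains) and 97.6% and 96.8%. HSPC-only values were lower than shared ones in each of the 4 width classes and in both KO libraries.

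**Figure D3:**
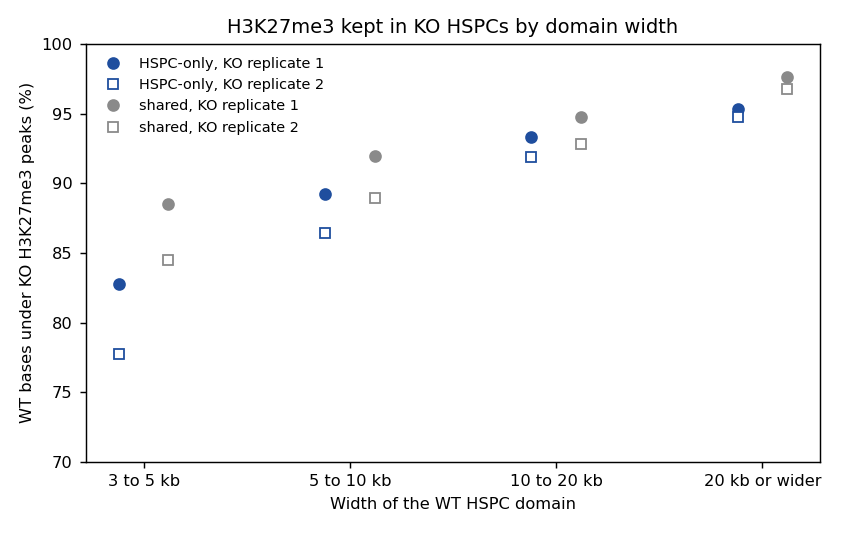
Share of the bases covered in both WT HSPC libraries that was also under H3K27me3 in each KO HSPC library (y axis, %, starting at 70), by width of the WT domain (x axis), with filled circles for KO replicate 1 and open squares for replicate 2. HSPC-only domains lie below shared domains in every width class, and both rise with width.

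Complete absence of H3K27me3 in KO HSPCs was rare. In neither KO library did a peak touch 4 HSPC-only domains (0.361%), where the share over all 9804 WT HSPC domains was 0.0714%. These 4 are 4 of 7 such domains in all. One of the 4 lay in an intron of Nfe2l3, which encodes a basic leucine zipper transcription factor (chr6:51444033-51447061, 3029 bp), with 72.0% and 72.5% in WT and 0% in both KO libraries. H2AK119ub covered 34.5% and 16.5% of it in WT HSPCs, 16.6% and 12.9% in KO HSPCs and 0% in all 4 mES libraries.

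Partial coverage was more common than absence. Less than 50% of the length was covered in both KO HSPC libraries in 71 HSPC-only domains (6.41%), against 2.62% of all domains. Domains under 5 kb made up 55.1% of the HSPC-only set and 32.4% of the shared set, and their part in this was not tested. The widest of the 71 lay inside Tcf7l2, a transcription factor that carries Wnt signals into the nucleus (chr19:55763843-55785553, 21711 bp). It had 90.6% and 81.7% in WT and 34.1% and 40.9% in KO, with H2AK119ub peaks spanning 33.3% and 29.3% (WT) or 33.5% and 40.6% (KO). The HSPC-only domain over the Tcf7l2 promoter (9472 bp) kept more, with 64.9% and 72.0% in KO against 91.1% and 91.8% in WT. Rab23, a small GTPase of the Hedgehog pathway, had 46.8% and 39.1% in KO over its promoter domain of 5519 bp, and 84.8% and 100% in WT.

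In HSPCs, H2AK119ub coverage of the HSPC-only domains was larger in both KO libraries than in both WT libraries, in a design too small to pass 0.05. The KO libraries had 30.2% and 31.9%, the WT libraries 27.9% and 21.1%. The difference was 6.58 points (exact permutation, p = 0.333, adjusted p = 0.4, the raw p being the smallest that 6 arrangements allow). It was 3.14 points without WT replicate 2, the shortest list, and 10.0 points without WT replicate 1. Shared domains moved the same way, from 35.7% ± 6.23 to 44.6% ± 1.17 (SD, n = 2). Domain by domain, both KO values exceeded both WT values in 274 HSPC-only domains (24.7%), where 34% of all WT HSPC domains did so. Both were lower in 52 (4.69%), against 3.46% of all. The median domain gained 3.79 points, against 6.43 points over all 9804. The HSPC-only share of higher domains was thus below the background share. A domain without an H2AK119ub peak in any HSPC library cannot be called higher. Such domains were 15.1% of the HSPC-only set and 6.98% of all, and their part in the gap was not tested.

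The 10 widest domains include several genes of the Hippo pathway and of epithelial polarity, and values of each follow. The widest lay in Magi1, a scaffold of epithelial junctions (chr6:94145129-94247883, 102755 bp, of which 83 bp exonic and 102672 bp intronic). H3K27me3 covered 97.4% and 97.8% of it in WT HSPCs and 97.5% and 98.6% in KO HSPCs. H2AK119ub covered 10.4% and 4.88% in WT HSPCs, 11.1% and 14.9% in KO HSPCs, and at most 1.61% in a mES library. It thus carried broad H3K27me3 with little H2AK119ub.

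The second lay in Tead1, a transcription factor that binds DNA for the coactivators YAP1 and WWTR1 (chr7:112825061-112892989, 67929 bp, 3602 bp exonic). H3K27me3 covered 99.9% and 99.1% in KO HSPCs. H2AK119ub covered 26.5% and 18.9% in WT HSPCs, 34.5% and 35.7% in KO HSPCs and 0.738% to 1.48% in mES cells. Here all 4 HSPC values were far above all 4 mES values. Further Tead1 domains of 32514 and 26498 bp had H2AK119ub over no more than 9.25% in WT HSPCs.

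The third covered the start of Yap1, the coactivator that the Hippo kinases restrain (chr9:7973125-8038424, 65300 bp). H3K27me3 covered 97.5% and 98.4% in KO HSPCs. H2AK119ub covered 32.7% and 23.5% in WT HSPCs, 44.2% and 48.0% in KO HSPCs, and 0% to 3.30% in mES cells, again without overlap between cell types. A 26165-bp domain inside Wwtr1, the paralogue of Yap1, had 95.2% and 93.8% H3K27me3 in KO HSPCs. Its H2AK119ub was low in HSPCs too, with 10.9% and 2.99% in WT and 10.3% and 15.2% in KO, and absent in mES cells.

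The fourth lay in Lifr, which encodes the receptor subunit for LIF (chr15:7119410-7175666, 56257 bp). H2AK119ub covered 46.6% and 31.8% of it in WT HSPCs, 47.4% and 52.0% in KO HSPCs and 5.27% to 6.23% in mES cells. The fifth was intergenic, 38397 bp from the start of Lrig1, a negative regulator of receptor tyrosine kinases, and its H2AK119ub covered 35.7% and 37.3% in WT HSPCs and 10.1% to 34.2% in mES cells. Pard3, a polarity scaffold, held a 50699-bp domain with H2AK119ub at 8.28% and 0.988% in WT HSPCs. The remaining 4 lay in Tenm4 and Chchd6 and over the starts of Ttc39b and Ryk, between 37146 and 41729 bp wide. All 10 kept 89.2% or more H3K27me3 in both KO HSPC libraries, and no KO mES H3K27me3 peak touched any of them.

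**Figure D4:**
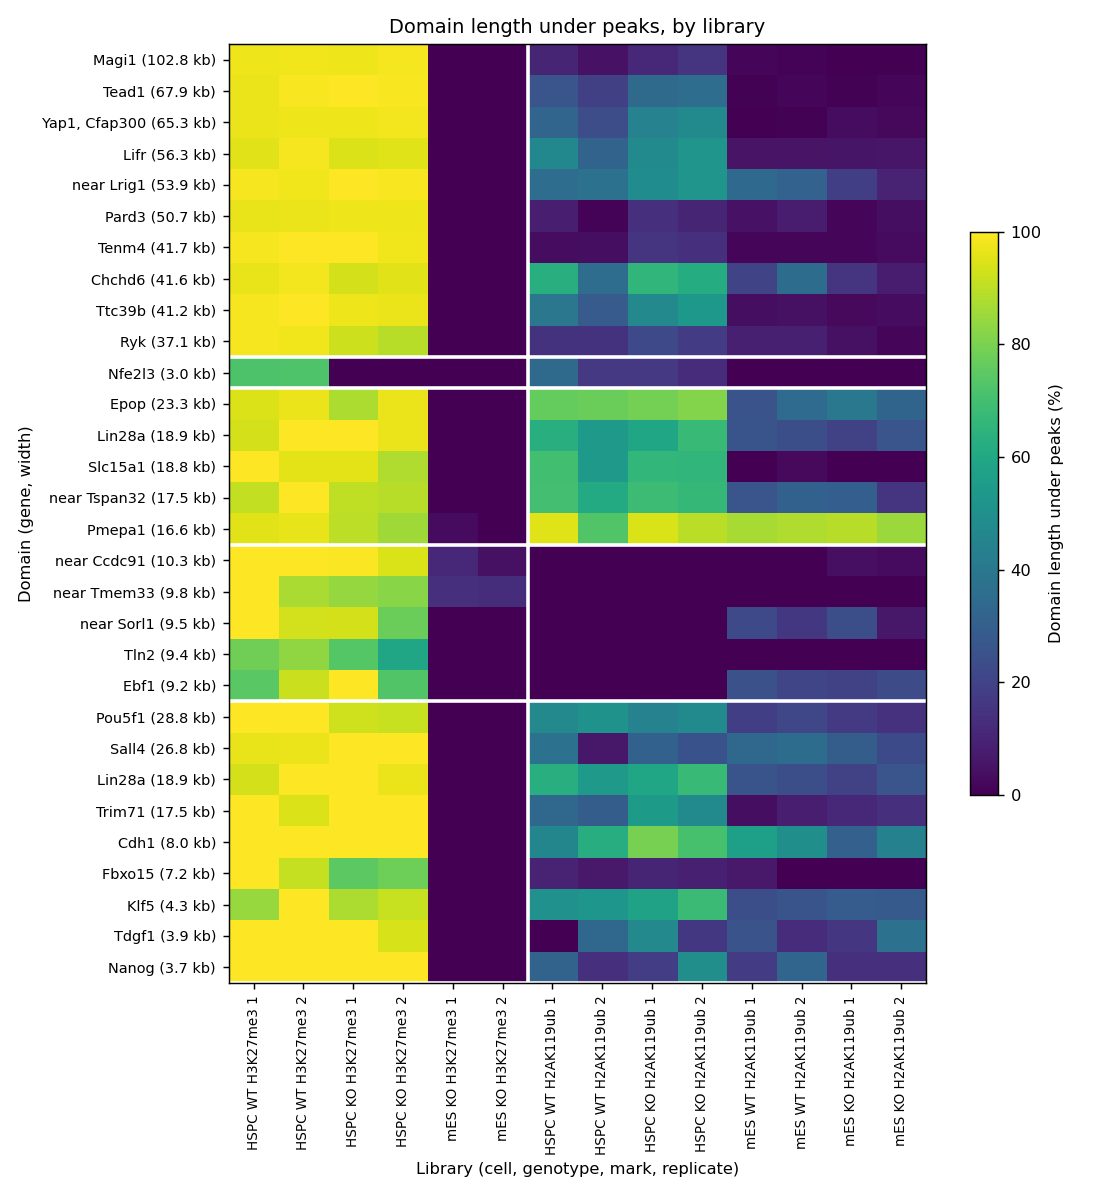
Percent of domain length under peaks (colour, 0 to 100%) for named HSPC-only domains (y axis, with width) in 14 libraries (x axis), leaving out the 2 WT mES H3K27me3 libraries, which are 0% by the choice of domains. Blocks from the top are the 10 widest, the Nfe2l3 domain without KO HSPC H3K27me3, the 5 widest with H2AK119ub over at least 50% in both WT HSPC libraries, the 5 widest without HSPC H2AK119ub, and domains over promoters of listed genes. The Nfe2l3 domain is dark (0%) in both KO HSPC H3K27me3 columns.

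Pluripotency genes were the list, among 10 taken for this tissue and cell pair, with the most promoters in HSPC-only domains. These domains met the promoters of 8 of 28 pluripotency genes (28.6%), where 1.17% of all 20807 autosomal protein-coding promoters met one. The lists were chosen with earlier results of these data known, and the count is a description. H3K27me3 peaks of HSPCs also met 8 or 9 of 12 widely expressed promoters, as given above, and 0 of those lay in such a domain. The promoters of Rpl3, Rpl36 and Psmb3, outside that list, did lie in one. The 8 pluripotency genes were Pou5f1, Nanog and Sall4, transcription factors of the pluripotency network, Klf5, a related zinc-finger factor, Lin28a and Trim71, which act on RNA, Tdgf1, a Nodal co-receptor, and Fbxo15, a marker of embryonic stem cells. Another 11 pluripotency promoters lay in shared domains. Over the 8 domains H3K27me3 in KO HSPCs covered 74.9% or more in both libraries.

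The Pou5f1 domain (chr17:35483000-35511798, 28799 bp, mostly intergenic, with the promoter and the gene inside) had 92.7% and 91.4% H3K27me3 in KO HSPCs. H2AK119ub covered 47.0% and 51.2% of it in WT HSPCs, 44.4% and 47.4% in KO HSPCs and 14.3% to 21.4% in mES cells. All HSPC values exceeded all mES values, and the genotypes overlapped in HSPCs. Over its promoter window alone H2AK119ub covered 100% in all 4 HSPC libraries and 72.8% to 87.6% in mES cells.

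The Sall4 domain (chr2:168750021-168776787, 26767 bp) had H2AK119ub at 37.1% and 6.40% in WT HSPCs, 31.0% and 25.01% in KO HSPCs and 22.5% to 35.2% in mES cells, so the cell types overlapped. Lin28a (chr4:134010282-134029188, 18907 bp) had 63.2% and 53.9% in WT HSPCs, 58.6% and 67.7% in KO HSPCs and 19.9% to 26.3% in mES cells. Trim71 (chr9:114554327-114571862, 17536 bp) had 33.4% and 29.3% in WT HSPCs, 54.5% and 47.8% in KO HSPCs and 3.71% to 13.8% in mES cells. Here both KO values were above both WT values in HSPCs. A second Trim71 domain at the far end of the gene, 4052 bp wide, had 12.4% and 0% H3K27me3 in KO HSPCs. Nanog had a narrow domain (chr6:122705496-122709163, 3668 bp), fully covered by H3K27me3 in both KO libraries, with H2AK119ub between 13.7% and 49.3% in HSPCs and between 13.7% and 32.6% in mES cells.

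Epithelial adhesion genes followed with 2 of 27 promoters, Cdh1 among them. Cdh1 encodes E-cadherin, the cadherin of epithelia and of embryonic stem cells, and its domain (chr8:106599857-106607882, 8026 bp) was fully covered by H3K27me3 in both KO HSPC libraries. Its H2AK119ub was 46.0% and 62.2% in WT HSPCs, 79.7% and 70.8% in KO HSPCs and 30.7% to 56.4% in mES cells. Another 20 promoters of this list lay in shared domains. HSPC-only domains met 0 promoters of the germline, lymphoid, mature myeloid and erythroid, HSPC identity, endothelial, neuronal, developmental transcription factor and widely expressed lists, and all 16 developmental transcription factor promoters lay in shared domains. In gene bodies, Ebf1, a B-cell transcription factor, held a 9162-bp domain without H2AK119ub in HSPCs and with 19.4% to 24.95% in mES cells.

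**Figure D5:**
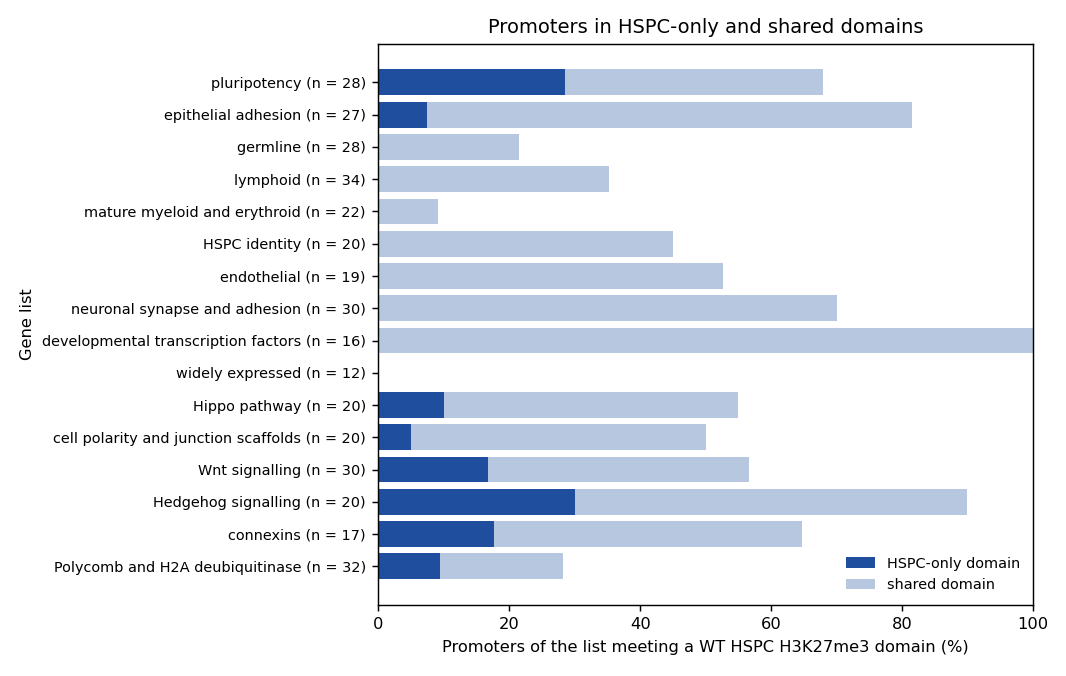
Percent of each list's promoters (x axis) that met an HSPC-only domain (dark) or a shared domain (light), by gene list (y axis, with the number of autosomal genes). The pluripotency list has 8 of 28 promoters in HSPC-only domains, and 8 lists have 0. The lower 6 lists were written after the domains had been seen.

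A further 6 lists were written after the genes of these domains had been seen, so their counts only describe them. A coding gene or its promoter met an HSPC-only domain in 2.52% of cases over the autosomes. For the Hippo pathway this was 8 of 20 genes, of which Yap1 and Tead2 at the promoter and Wwtr1, Tead1, Tead4, Amotl1, Wwc1 and Vgll4 inside the gene. These genes are long, with a median of 76.6 kb against 17.6 kb for all coding genes. For cell polarity and junction scaffolds it was 5 of 20, among them Pard3, Prkcz, Magi1 and Tjp1. All but 1 of these 5 were met inside the gene alone, and the genes of this list are longer still, with a median of 116 kb.

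At promoters, the Hedgehog list had 6 of 20, the Wnt list 5 of 30 and the connexins 3 of 17, where 1.17% of all autosomal coding promoters met an HSPC-only domain. More promoters of these lists lay in shared domains, with 12 of 20, 12 of 30 and 8 of 17. Hedgehog members included Gli2 and Glis2, zinc-finger transcription factors, and Rab23, Rab34 and Tulp3, which act in ciliary trafficking. The Gli2 domain (15953 bp) had H2AK119ub at 32.8% and 7.12% in WT HSPCs, 50.6% and 51.6% in KO HSPCs and 36.2% to 44.5% in mES cells. Wnt members were the receptors Fzd10, Ryk and Ptk7, the scaffold Axin2 and the transcription factor Tcf7l2. Axin2 (15307 bp) was fully covered by H3K27me3 in both KO libraries, with H2AK119ub at 53.0% and 44.7% in WT HSPCs and 66.2% and 70.3% in KO. Connexins, which form gap junctions, included Gja1 and Gjc1.

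Polycomb and H2A deubiquitinase genes had 3 of 32 promoters in HSPC-only domains, against 1.17% of all autosomal coding promoters, and 6 of 32 in shared domains. Epop encodes a PRC2-associated protein of embryonic stem cells, and its domain (chr11:97609365-97632651, 23287 bp) was the widest with H2AK119ub over at least 50% in both WT HSPC libraries. H2AK119ub covered 76.4% and 77.5% in WT HSPCs, 79.2% and 81.6% in KO HSPCs and 25.7% to 39.9% in mES cells, without overlap between cell types. Pcgf2, a PRC1 subunit, shared a 6709-bp domain with the promoter of Psmb3. H2AK119ub covered 88.0% to 99.8% of it in HSPCs and 77.2% to 94.7% in mES cells. Mbd6, whose product partners the H2A deubiquitinase complex, shared a 3177-bp domain with Ddit3. H2AK119ub covered all of it in the 4 HSPC libraries and 44.6% to 69.6% in mES cells, and H3K27me3 covered 68.3% and 100% in KO HSPCs.

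Domains at the extremes of H2AK119ub differed in kind. After Epop, the widest with at least 50% in both WT HSPC libraries were Lin28a, Slc15a1, a domain 5643 bp from the start of Tspan32, and Pmepa1. Slc15a1, a peptide transporter gene, had an 18805-bp domain inside the gene with 53.5% to 69.9% in HSPCs and 0% to 2.66% in mES cells. Pmepa1, a brake on TGF-beta signalling, had 72.9% to 95.1% in HSPCs and 84.8% to 89.2% in mES cells over 16609 bp, the highest mES values of the 5. The 5 widest without HSPC H2AK119ub were 9162 to 10326 bp wide, touched no coding promoter, and kept 59.2% to 100% H3K27me3 in KO HSPCs. One lay inside Tln2, a talin gene, with 0% H2AK119ub in all 8 libraries.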

How the data were processed

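CUT&Tag peak lists of H3K27me3 and H2AK119ub were used from 16 mouse libraries, 2 in each group. The other 4 of the 20 libraries are from a human cell line and were not used here. The values are the start and end of each peak on mm10, as deposited by the authors, 1 list per library and with no signal, score or count. In each list 33.2% to 41.4% of the autosomal peaks were 501 bp wide. The labels' processing notes name Trimmomatic 0.39, Bowtie2 2.4.1 and HOMER 4.9, and the methods describe MACS2 in broad mode. Which caller wrote the lists is not given in the sources used here. A Drosophila spike-in scales signal in the methods and does not enter the lists. Since read depth is unknown, no counting interval is given, and list length can move coverage.

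Domains were built from bases under peaks of both replicates, with gaps of up to 1 kb joined and a minimum width of 3 kb. Coverage is the percent of summed domain length under the peaks of a library. Genes came from GENCODE M21, promoters were 1 kb on each side of a coding gene start, and bases were read from the GRCm38 RefSeq genome. Domain counts were checked with bedtools 2.31.1, and the code was tested on simulated data, where all planted domains were recovered. Python 3.11.15, numpy 2.4.6, scipy 1.17.1 and matplotlib 3.10.9 were used.

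Libraries were compared with two-sided exact permutation tests, and Benjamini-Hochberg adjustment covered 6 tests, of which the last, on the difference between the Tet2 effects of the cell types, was added after seeing the data. The smallest p allowed was 0.333 or 0.0556. The members, gene lists and tests were chosen with earlier results of these data known. Genes named are those of the 10 widest domains, the widest without KO H3K27me3, the 5 widest with H2AK119ub over at least 50% in both WT HSPC libraries, the 5 widest without it in HSPCs, and listed genes with a promoter in a domain. The genes of the 6 added lists, Tcf7l2 and the gene groups within 100 kb were named after their values were seen. Some members are not reported here. Alternatives changed peak width, gap joining, domain width, the mES overlap allowed, the promoter window, the coverage measure, the libraries used, the replicate block, the number of peaks and the chromosomes.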

Additional observations from a re-analysis of the deposited data

Results flagged for a closer look

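The effect of Tet2 genotype on H2AK119ub coverage of the HSPC-only domains differed in sign between cell types. Both KO HSPC libraries lay above both WT HSPC libraries (a mean difference of 6.58 percentage points), and both KO mES libraries lay below both WT mES libraries (-2.72 points). The difference between these effects was 9.29 points (two-sided exact permutation within cell type, p = 0.0556, adjusted p = 0.167), and this p is the smallest that 36 arrangements can give. It was 5.85 to 12.7 points under the alternatives. Group means of shared domains moved the same way from WT to KO, from 35.7% to 44.6% in HSPCs and from 62.2% to 60.8% in mES cells. The opposite signs were thus not particular to HSPC-only domains. KO HSPC libraries held 2828 and 3054 H2AK119ub peaks on the X chromosome and WT HSPC libraries 637 and 418, so that genotype and the origin of this gap cannot be told apart.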

How the results depend on the processing

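Of 137 alternative values, 3 changed sign, 13 moved by more than the spread or limit set for them, and 121 did neither. Those 121 include changes of size, since no test passed its threshold. HSPC KO minus WT, 6.58 points, lay between 3.14 and 10.0, HSPC minus mES, 6.91 points, between 3.11 and 9.66, and the difference between the Tet2 effects, 9.29 points, between 5.85 and 12.7. The number of HSPC-only domains, 1108, was 1712 with peaks of at least 1 kb, 498 with domains of 5 kb or wider, and 1701 to 1738 when each WT HSPC H3K27me3 replicate was left out in turn. Domains at a coding promoter, 228, were 413 with peaks of at least 1 kb and 133 with domains of 5 kb or wider. H2AK119ub in WT HSPCs minus WT mES cells, 2.26 points, was -1.33 with peaks of at least 1 kb, -2.53 as percent of domains touched, and -1.18 to 5.70 when single replicates were left out. H3K27me3 kept in KO HSPCs, HSPC-only minus shared, -5.73 points, was -4.22 without joining of gaps, -8.66 with gaps up to 2 kb joined, -3.41 with domains of 5 kb or wider, -4.30 with 10% mES overlap allowed, -7.33 over the whole domain, and -12.2 to -5.30 when single replicates were left out. For these changes the cause was not tested.

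With the replicate number as a block the HSPC KO minus WT difference was 6.58 points with p = 0.5 (exact permutation), and no call changed, since none passed. Deviations of same-numbered libraries correlated between -0.0323 and 0.0423 over 1108 domains. These correlations ran across genotypes or cell types within a mark, and the marks were not compared with each other. Whether the numbers pair the samples cannot be told from them. Each H2AK119ub list was also cut to 112281 autosomal peaks in file order, a setting chosen after seeing the data. The HSPC KO minus WT difference was then 6.12 points. The lists hold no score to rank peaks by, so this cut does not equalise read depth. With 2 libraries a group, no single comparison of 2 groups could pass 0.05, and without read depth a missing peak cannot be told apart from weak signal.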
